A study of Mus musculus with 4 samples.

Results

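Of the 33012 probes on the array, 57 were below the detection limit in the parental melanoma line and after 1 round of passage through mice, and were clearly detected in both lines made after 2 rounds. Each of the 57 belonged to a different gene identifier, of 30987 in the file. They were chosen by the signal-to-noise ratio (S/N) that the array reader gives each spot. Their S/N was below 3 on the arrays of B16 and B16-RI and at least 6 on those of B16-RII and B16-RIIL, with a quality flag of at most 5000 on all 4. The numeric rule was met by 59 probes, which is 0.179% of all probes and 0.37% of the 15926 probes that were below 3 on B16 and B16-RI with flags in the limit. Apobec2 and Mcoln3 were left out by name. Fbp2, also to be left out, was not among the 59, because the flag of its probe on B16 was over the limit. Since the members were selected on the same 4 arrays, their levels and differences are given as a description with no test.

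All 4 lines descend from B16, a mouse melanoma of C57Bl6 background, and were grown in medium with 20% fetal bovine serum for up to 10 passages. The labels call the parental line B16, and the paper names the injected parental cells B16F1. B16-RI was derived from lymph node metastases that arose in C57BL6 mice given an intradermal B16F1 tumour. The tumour was removed 14 to 17 days after implantation. Passing B16-RI through mice in the same way gave B16-RII from lymph node metastases and B16-RIIL from lung metastases. The study asked what sets lines passaged through the lymphatic system apart from the parental line. RNA came from the cultured lines and not from tumours, and for each line the RNA of 2 passage numbers was pooled. Whether a line arose from 1 cell or many was not given in the sources used here. The labels give 1 sample per line although the study describes duplicates, so 1 array per line was used here and no difference between lines had a replicate check. In a whole culture, fewer expressing cells and less RNA per cell cannot be told apart.

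Melanocytes arise from the neural crest, the embryonic source that also gives Schwann cells and other peripheral glia, and melanoma cells can express genes of these related lineages. The named members belong to several branches of cell biology. Cell surface receptors and the proteins coupled to them pass on outside signals, Rab GTPases direct vesicles between membranes, intermediate filaments and actin-binding proteins hold the cell's shape, and zinc finger proteins bind DNA.

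A gene symbol was given for 31 of the 57 members, and 1 of these probes carried the symbols of 2 genes. Of the 30 members with 1 symbol, 28 were found in the RefSeq gene table, 11 of them through an older name. They were 27 protein-coding genes and 1 long noncoding RNA. The name in the file is given first, with the current one in brackets where it differs. The other 26 members were listed by a Celera gene number (17) or a cDNA accession (9), which the files did not pair with names.

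Among all probes, 14375 were detected on B16, 13872 on B16-RI, 14756 on B16-RII and 14855 on B16-RIIL, a probe being detected when its S/N reaches 3 and its flag does not exceed 5000. Probes detected on all 4 arrays, 11604 in number, had a median difference from B16 of 0.41 log2 units on B16-RII and 0.22 on B16-RIIL in the deposited normalized signal. All 8 melanocyte genes of the list that are on the array were detected in every line. Of all genes with a symbol, 53.6% to 56.6% were detected on an array. The summed normalized signal of the 8 was between 6410.55 and 7898.07, most of it from Tyrp1, Dct, Pmel and Slc45a2. Kit alone was at least 2-fold above B16, on B16-RIIL, as were 7.14% of all genes with a symbol. Its signal was 5.16 on B16 and 4.80 on B16-RI, against 9.18 on B16-RII and 19.27 on B16-RIIL.

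In the members the normalized signal on B16 ranged from 0.29 to 4.24 with a median of 1.05. On B16-RI it ranged from 0.20 to 4.27 with a median of 0.97. The range was 0.91 to 10.74 on B16-RII, with a median of 3.38, and 1.33 to 10.79 on B16-RIIL, with a median of 3.10. The ranges of the earlier and the later lines thus overlapped, and the members were dim in all lines. Because a signal below the detection limit bounds the level from above, a ratio over B16 or B16-RI is written as at least N-fold, taken over the undetected signal itself or, if that is higher, over the dimmest signal detected on the same array. By this measure the median member was at least 2.71-fold above B16 on B16-RII (1.44 log2 units) and at least 2.97-fold above it on B16-RIIL (1.57 log2 units). Relative to B16-RI the medians were 1.57 and 1.51 log2 units.

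The size of the step differed widely between members. In 55 of the 57, both round 2 signals were above both earlier signals. The lower round 2 signal was at least 2-fold above the higher earlier signal in 29 members, at least 4-fold above it in 7, and less than 2-fold above it in 28. The 29 were 22 to 30 under the other scalings of all probes and 19 once the medians of the 2 probe sets were aligned, alternatives chosen after seeing the data. Over all probes, 0.509% were detected on both round 2 arrays with such a 2-fold gap. The rule used the same arrays, so nothing was read from the difference between these shares. An S/N of 2 or more on B16 or B16-RI, close under the limit of 3, was seen in 36 members. An S/N below 1 on both earlier arrays was seen in 4. The S/N on at least 1 round 2 array was below 8 in 48 members, and it reached 10 on both arrays in 5. These probes were therefore described as newly detected, and not as switched on.

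**Figure D1:**
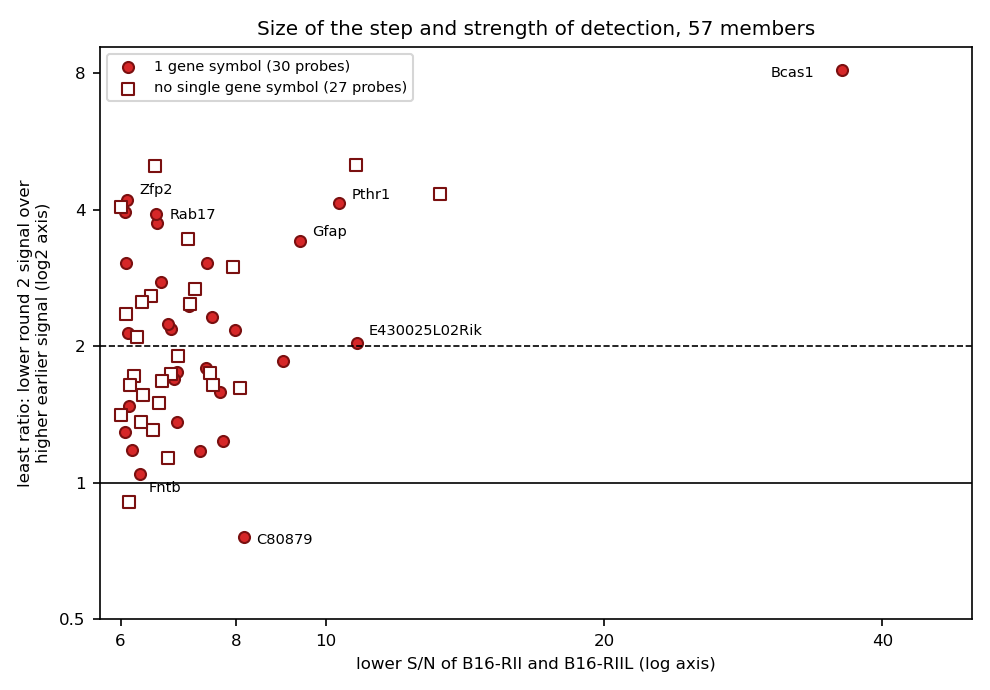
Each point is 1 of the 57 members. The horizontal axis gives the lower S/N of B16-RII and B16-RIIL (log axis) and the vertical axis the ratio of the lower round 2 signal to the higher earlier signal (log2 axis), with lines at ratios of 1 and 2. Filled circles are the 30 members with 1 gene symbol and open squares the 27 others. Most points lie below an S/N of 8, Bcas1 stands alone above 20, and 2 points lie below a ratio of 1.

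The named members with the highest S/N in round 2 were Bcas1, E430025L02Rik (Nrros), Pthr1 (Pth1r) and Gfap. Bcas1, on chromosome 2, encodes a protein found in oligodendrocytes and myelin and was named for a region amplified in breast carcinoma. Its normalized signal was 0.29 on B16 and 1.16 on B16-RI, against 10.74 on B16-RII and 9.41 on B16-RIIL. Bcas1 was at least 34.6-fold above B16 on B16-RII and at least 30.4-fold above it on B16-RIIL. Relative to B16-RI, where its S/N of 2.79 was just under the limit, it was at least 9.26-fold and 8.11-fold higher. The S/N of Bcas1 was 36.95 and 36.15 in the round 2 lines, and no other member reached 20 on both.

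Gfap, on chromosome 11, encodes the intermediate filament protein of astrocytes, which some Schwann cells also make. Its signal was 1.15 on B16 and 0.92 on B16-RI, against 9.25 on B16-RII and 3.93 on B16-RIIL. The lung-derived line was thus between the lymph node line and the earlier lines. Gfap was at least 8.04-fold above B16 on B16-RII and at least 3.42-fold above it on B16-RIIL. On B16-RI its S/N was 0.03, which is the level of the background.

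Pthr1 (Pth1r), on chromosome 9, is the G protein-coupled receptor of parathyroid hormone and parathyroid hormone-related protein. Its signal was 0.99 on B16 and 0.87 on B16-RI, against 4.09 on B16-RII and 10.79 on B16-RIIL. In contrast to Gfap, the lung-derived line was the brighter of the round 2 lines. Pthr1 was at least 4.13-fold above B16 on B16-RII and at least 10.9-fold above it on B16-RIIL.

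E430025L02Rik (Nrros), on chromosome 16, encodes a leucine-rich repeat protein that binds latent TGF-beta and is best known from microglia and macrophages. Its signal was 0.58 on B16 and 2.08 on B16-RI, against 4.22 on B16-RII and 5.83 on B16-RIIL. The probe was brighter on B16-RI than on B16, although undetected there with an S/N of 2.82, and brighter again on both round 2 arrays. It was at least 7.28-fold and 10.1-fold above B16 on B16-RII and B16-RIIL, and at least 2.03-fold and 2.80-fold above B16-RI. Of 8 macrophage marker genes, 2 were detected on B16 and 1 on each of the other arrays, with summed signals between 8.64 and 9.68. Of all genes with a symbol, 53.6% to 56.6% were detected on an array. The macrophage gene detected in every line was Lyz2, at 5.01 on B16 and 4.30 on B16-RI, against 3.29 on B16-RII and 3.75 on B16-RIIL. The part of macrophages in the Nrros signal was not tested.

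The promoters of Nrros, Pth1r and Gfap are shown because these genes lead the named members by S/N. Bcas1 had no entry in the promoter table. Each sequence comes from the RefSeq table of build GRCm38.p6 and runs 5′ to 3′ on the strand of its gene, from 250 bases before the start of transcription to 50 bases after it. Nrros lies at chr16:32165545-32165844 on the minus strand, Pth1r at chr9:110747096-110747395 on the minus strand (the first of 3 starts in the table) and Gfap at chr11:102897151-102897450 on the minus strand. Capitals mark the letters searched for, which are named after the sequences.
Nrros: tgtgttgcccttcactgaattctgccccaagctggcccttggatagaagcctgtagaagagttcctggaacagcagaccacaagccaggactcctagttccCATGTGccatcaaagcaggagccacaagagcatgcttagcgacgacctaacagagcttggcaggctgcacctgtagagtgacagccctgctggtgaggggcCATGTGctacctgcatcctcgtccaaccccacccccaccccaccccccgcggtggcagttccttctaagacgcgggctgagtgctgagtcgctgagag
Pth1r: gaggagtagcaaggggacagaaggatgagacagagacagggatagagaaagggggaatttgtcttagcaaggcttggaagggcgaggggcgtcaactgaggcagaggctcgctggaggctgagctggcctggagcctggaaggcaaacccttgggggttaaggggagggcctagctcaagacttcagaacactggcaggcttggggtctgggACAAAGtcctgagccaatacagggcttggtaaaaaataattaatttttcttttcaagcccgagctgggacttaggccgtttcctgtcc
Gfap: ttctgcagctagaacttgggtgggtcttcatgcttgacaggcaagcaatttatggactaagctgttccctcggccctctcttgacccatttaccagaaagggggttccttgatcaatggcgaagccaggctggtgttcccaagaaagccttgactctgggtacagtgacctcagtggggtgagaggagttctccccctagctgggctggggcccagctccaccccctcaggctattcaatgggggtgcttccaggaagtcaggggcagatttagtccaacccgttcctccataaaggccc
On both strands the search covered the E-box CACGTG and the core of the M-box, CATGTG, both of which the pigment cell factor MITF can bind. It also covered the AP-1 letters TGACTCA, the CRE letters TGACGTCA, the TATA box TATAAA, the SOX core ACAAAG and the GC box GGGCGG. None of these holds another whole. In Nrros, CATGTG was found at positions -149 to -144 and -48 to -43 from the start. In Pth1r, ACAAAG was found at -38 to -33, and Gfap held none of these letters. All 3 promoters were poor in CpG, with an observed over expected ratio of 0.31 in Nrros, 0.25 in Pth1r and 0.13 in Gfap.

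Over the 23 members with a promoter in the table, 9 promoters were rich in CpG (39.1%), where this means a GC share of at least 50% and an observed over expected CpG ratio of at least 0.6. Among the 11622 promoters of genes on the array, taken at the first start listed, 53.3% were. The M-box core was present in 3 member promoters (13%), Nrros, Ephb4 and D13Bwg1146e (Rgs7bp), and in 10.1% of all. The SOX core was present in 3 (13%), Pth1r, Rab17 and Man2b2, and in 16.1% of all. The E-box was found in 2 (8.70%), Surf2 and 2010005J08Rik (Urgcp), against 8.84%, and AP-1 letters in 1 (4.35%), BC062958 (Zfp458), against 4.48%. The GC box was found in 13 (56.5%) against 53.1%. No member promoter held the CRE or the TATA box, which were found in 2.68% and 11.9% of all. A match of letters is a description of the sequence and not a site of binding.

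Of the named members, 7 were placed among receptors and signalling proteins, in groups formed after the values were seen. The share of such genes on the array was not counted, so the size of the group was not read as a result. In all but Ephb4, that is in 6, both round 2 signals were at least 2-fold above both earlier signals. For Nrros this gap depended on the scaling. Its difference of 1.02 log2 units between B16-RII and B16-RI became 0.98 with 75th percentile scaling and 0.99 with aligned probe sets. Amhr2, on chromosome 15, is the type II receptor of anti-Müllerian hormone, known from the gonads. Its signal was 0.29 on B16 and 0.40 on B16-RI, against 1.28 on B16-RII and 4.66 on B16-RIIL, so that the lung-derived line was the brightest. Amhr2 was at least 4.13-fold above B16 on B16-RII and at least 15-fold above it on B16-RIIL.

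Map3k5, on chromosome 10, encodes ASK1, a stress-activated kinase upstream of JNK and p38. It was measured at 0.90 on B16 and 1.49 on B16-RI, against 3.24 on B16-RII and 5.19 on B16-RIIL, at least 3.60-fold and 5.77-fold above B16. D13Bwg1146e (Rgs7bp), on chromosome 13, encodes a membrane anchor of R7 regulators of G protein signalling. Its signal was 0.78 on B16 and 0.51 on B16-RI, against 3.05 on B16-RII and 3.54 on B16-RIIL. Rgs7bp was at least 3.91-fold and 4.54-fold above B16, with the round 2 lines close to each other.

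Ephb4, on chromosome 5, is the receptor tyrosine kinase of ephrin-B2, known from the separation of arteries and veins. It had a signal of 3.85 on B16 and 2.99 on B16-RI, against 6.1 on B16-RII and 8.74 on B16-RIIL. Ephb4 was at least 1.58-fold and 2.27-fold above B16, and its S/N of 2.95 on B16-RI was just inside the limit. Cklfsf8 (Cmtm8), a MARVEL-domain membrane protein on chromosome 9, was measured at 1.39 on B16 and 1.29 on B16-RI, against 4.59 on B16-RII and 4.25 on B16-RIIL. It was at least 3.30-fold and 3.06-fold above B16. Of 8 endothelial marker genes, none was detected on B16 or B16-RI and 1, Pecam1, on each round 2 array, with summed signals between 4.39 and 7.90. Of all genes with a symbol, 53.6% to 56.6% were detected on an array. Pecam1 gave 0.52 on B16 and 1.34 on B16-RI, against 2.44 on B16-RII and 1.02 on B16-RIIL. It was at least 2-fold above B16 on B16-RII only, as were 7.41% of all genes with a symbol on that array.

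**Figure D2:**
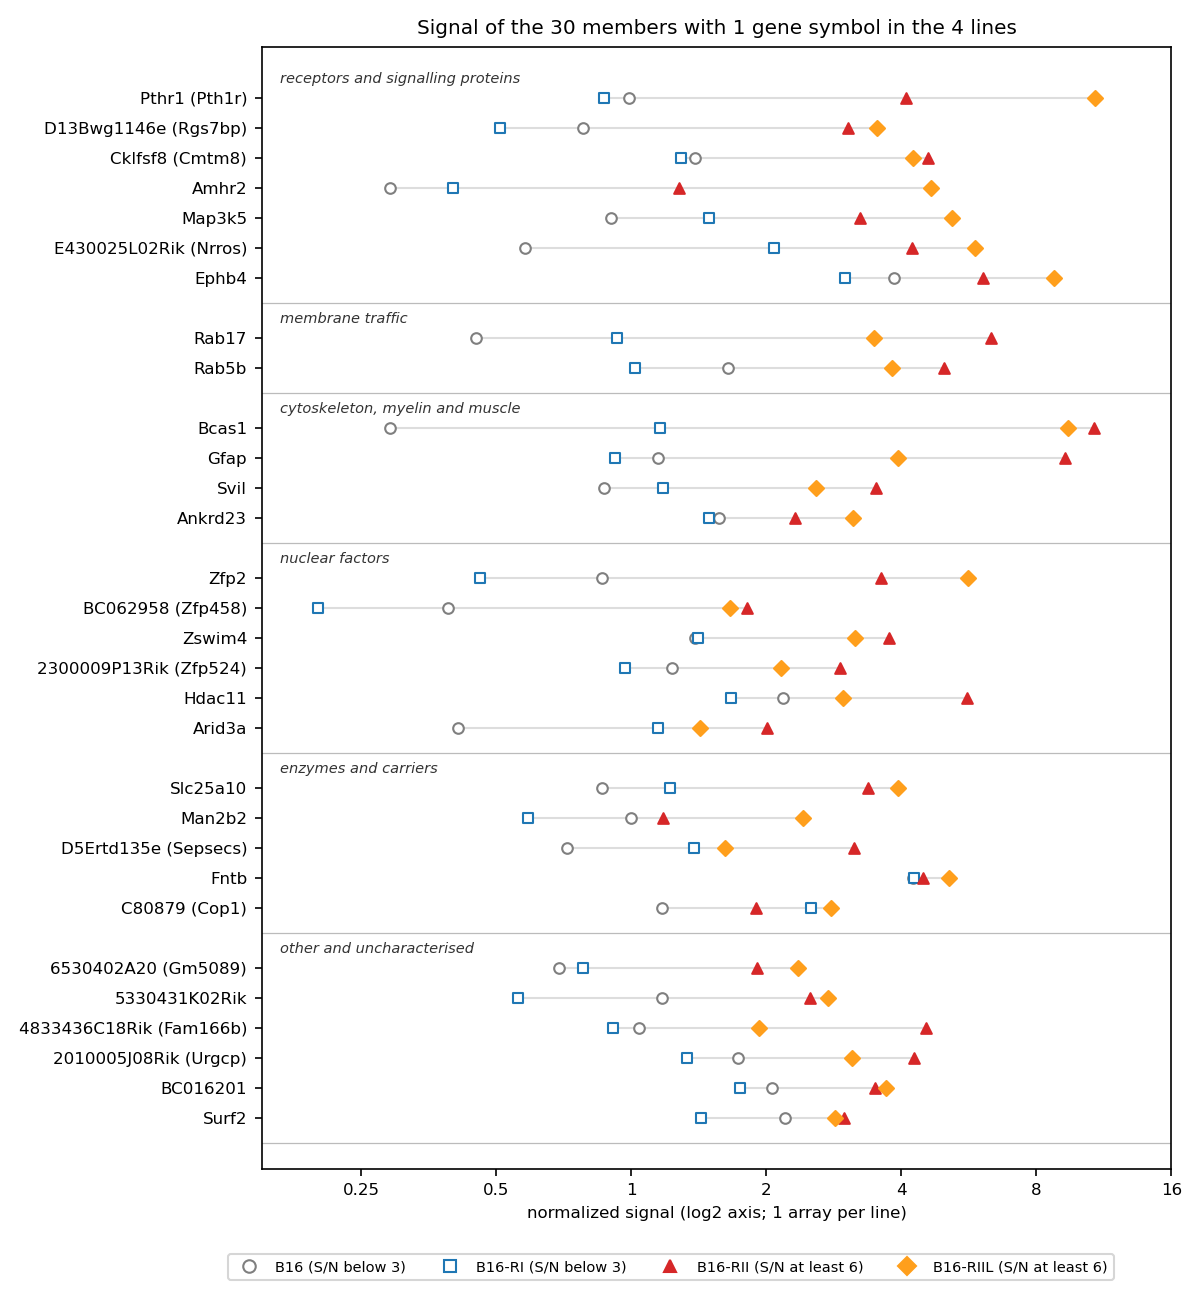
Normalized signal (log2 axis) of the 30 members with 1 gene symbol, grouped by function, with 1 array per line. Open circles are B16 and open squares B16-RI, both with an S/N below 3, filled triangles B16-RII and filled diamonds B16-RIIL, both with an S/N of at least 6. In Bcas1, Pthr1, Gfap and Rab17 the filled symbols lie far to the right of the open ones, while in Fntb all 4 symbols lie together and in C80879 the triangle lies left of the open square.

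Both members of the Rab family had the 2-fold gap. Rab5b lost it with aligned probe sets, where its difference from B16 on B16-RIIL went from 1.22 to 0.70 log2 units. Rab17, on chromosome 1, directs membrane traffic in polarised epithelial cells and supports filopodia in melanocytes. Its signal was 0.45 on B16 and 0.93 on B16-RI, against 6.34 on B16-RII and 3.48 on B16-RIIL. The lymph node line of round 2 was the brightest, at least 14.1-fold above B16, and the lung-derived line was at least 7.73-fold above it. Rab5b, on chromosome 10, acts at early endosomes. It was measured at 1.64 on B16 and 1.02 on B16-RI, against 4.97 on B16-RII and 3.81 on B16-RIIL, at least 3.03-fold and 2.32-fold above B16.

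Of 4 members known from the cytoskeleton, myelin or muscle, Bcas1, Gfap and Svil had the 2-fold gap and Ankrd23 did not. Svil, on chromosome 18, encodes supervillin, which ties actin and myosin to the membrane. Its signal was 0.87 on B16 and 1.18 on B16-RI, against 3.51 on B16-RII and 2.58 on B16-RIIL, at least 4.03-fold and 2.97-fold above B16. Ankrd23, on chromosome 1, encodes an ankyrin repeat protein of striated muscle. It gave 1.57 on B16 and 1.49 on B16-RI, against 2.32 on B16-RII and 3.12 on B16-RIIL, at least 1.48-fold and 1.99-fold above B16.

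Gfap was also the only member in the marker lists. Of 8 Schwann cell and glia genes on the array, 3 were detected on B16, 2 on B16-RI, 4 on B16-RII and 5 on B16-RIIL. On B16-RII 3 of them, Gfap, Mbp and S100b, were at least 2-fold above B16 and 1, Pmp22, was at least 2-fold below it. On B16-RIIL 4 were above, with Ngfr as the fourth, and none was 2-fold below. Gfap is in both counts, although the rule had chosen it by its S/N on these arrays. Without Gfap, Mbp and S100b were above on both arrays and Ngfr on B16-RIIL. Among all 15619 genes with a symbol, 7.41% were above and 3.3% below on B16-RII, and 7.14% and 3.65% on B16-RIIL. Detected were 54.9% of them on B16, 53.6% on B16-RI, 56.4% on B16-RII and 56.6% on B16-RIIL. The myelin gene Mbp was detected in every line, at 41.91 on B16 and 99.08 on B16-RI, against 128.65 on B16-RII and 103.74 on B16-RIIL. Ngfr, the p75 neurotrophin receptor, had a signal of 0.47 on B16 and 1.01 on B16-RI, against 1.5 on B16-RII and 4.34 on B16-RIIL and was detected on B16-RIIL alone. The factors Egr2 and Sox2 were detected in no line. With quantile normalization of the raw signals, 1 glia gene on B16-RII and 2 on B16-RIIL were 2-fold above B16. The 1 on B16-RII was Gfap, which the rule had chosen. With each of the other scalings the counts were 2 on B16-RII and 4 on B16-RIIL.

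No member was on the skeletal muscle list, of which 11 genes were on the array. Of these 2 were detected on B16, 5 on B16-RI, 4 on B16-RII and 5 on B16-RIIL, and the summed signal was 14.35, 22.38, 37.69 and 36.95. On each round 2 array 4 of the 11 were at least 2-fold above B16, against 7.41% and 7.14% of all genes with a symbol, of which 53.6% to 56.6% were detected on an array. The 4 were Ckm, Mylpf and Des on both arrays, with Casq1 on B16-RII and Pygm on B16-RIIL, and none was 2-fold below. Creatine kinase Ckm was detected in every line, at 2.37 on B16 and 6.06 on B16-RI, against 14.24 on B16-RII and 13.03 on B16-RIIL. Des, undetected on B16, gave 1.15 there and 1.82 on B16-RI, against 6.92 on B16-RII and 6.08 on B16-RIIL. Under each of the other scalings 2 muscle genes were 2-fold above B16 on B16-RII and 4 on B16-RIIL. Of the defining factors, Myod1 was detected in no line and Myog on B16-RI alone, with a signal of 1.84 and an S/N of 3.18. Whether other cells took part in the signals of Svil and Ankrd23 was not tested.

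Nuclear factors numbered 6, of which 3 had the 2-fold gap. Zfp2, a zinc finger gene on chromosome 11, had a signal of 0.86 on B16 and 0.46 on B16-RI, against 3.61 on B16-RII and 5.64 on B16-RIIL. Zfp2 was at least 4.20-fold and 6.56-fold above B16 and at least 7.85-fold and 12.3-fold above B16-RI. BC062958 (Zfp458), also a zinc finger gene and on chromosome 13, was measured at 0.39 on B16 and 0.20 on B16-RI, against 1.81 on B16-RII and 1.66 on B16-RIIL. Its S/N was negative on both earlier arrays, which places its signal there within the background. Zswim4, a SWIM zinc finger gene on chromosome 8, gave 1.39 on B16 and 1.41 on B16-RI, against 3.76 on B16-RII and 3.16 on B16-RIIL, at least 2.71-fold and 2.27-fold above B16. With aligned probe sets Zswim4 lost the gap, its difference from B16 on B16-RIIL going from 1.18 to 0.66 log2 units.

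The other 3 nuclear factors did not have the 2-fold gap. Hdac11, a histone deacetylase that also removes fatty acyl groups, lies on chromosome 6. Its signal was 2.18 on B16 and 1.67 on B16-RI, against 5.60 on B16-RII and 2.97 on B16-RIIL, so that the lung-derived line was at least 1.36-fold above B16. That difference, 0.45 log2 units, became -0.07 with the probe sets aligned. For 2300009P13Rik (Zfp524), on chromosome 7, it was 1.23 on B16 and 0.97 on B16-RI, against 2.92 on B16-RII and 2.16 on B16-RIIL. Arid3a, on chromosome 10, encodes an AT-rich DNA-binding factor known from B cells and embryonic lineages. It was measured at 0.41 on B16 and 1.15 on B16-RI, against 2.01 on B16-RII and 1.42 on B16-RIIL. On B16-RIIL it was at least 3.46-fold above B16, and at least 1.23-fold above B16-RI.

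Of the 5 enzyme and carrier genes, 1 had the 2-fold gap. That member was Slc25a10 on chromosome 11, which carries dicarboxylates across the inner mitochondrial membrane. Its signal was 0.86 on B16 and 1.22 on B16-RI, against 3.38 on B16-RII and 3.93 on B16-RIIL, at least 3.93-fold and 4.57-fold above B16. Man2b2, an alpha-mannosidase gene on chromosome 5, gave 1.00 on B16 and 0.59 on B16-RI, against 1.18 on B16-RII and 2.42 on B16-RIIL. On B16-RII it was thus at least 1.18-fold above B16, but the log2 difference of 0.24 became -0.29 with 75th percentile scaling and -0.19 with aligned probe sets. D5Ertd135e (Sepsecs), also on chromosome 5, acts in the synthesis of selenocysteine. It was measured at 0.72 on B16 and 1.38 on B16-RI, against 3.13 on B16-RII and 1.62 on B16-RIIL, and on B16-RIIL was at least 1.17-fold above B16-RI.

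In the remaining enzyme genes the S/N rose without a like step in the signal. Fntb, on chromosome 12, encodes the beta subunit of protein farnesyltransferase. Its signal was 4.24 on B16 and 4.27 on B16-RI, against 4.47 on B16-RII and 5.12 on B16-RIIL, while its S/N was 1.54, 1.66, 6.30 and 9.68. The log2 difference of Fntb from B16 has no settled sign, since 0.08 on B16-RII became -0.03 with quantile normalization, -0.11 with 75th percentile scaling and -0.35 with aligned sets, and 0.27 on B16-RIIL became -0.25 with aligned sets. C80879 (Cop1), a ubiquitin ligase gene on chromosome 1, had a signal of 1.17 on B16 and 2.51 on B16-RI, against 1.90 on B16-RII and 2.79 on B16-RIIL. On B16-RII its signal was below that on B16-RI, although the S/N was 15.10 on the former and 2.67 on the latter. The other member whose lower round 2 signal did not exceed both earlier ones was mCG15349.2, at 1.34 on B16 and 2.72 on B16-RI, against 2.47 on B16-RII and 4.11 on B16-RIIL.

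The last 6 named members had other functions or none known well. The uncharacterised 4833436C18Rik (Fam166b), on chromosome 4, was measured at 1.04 on B16 and 0.91 on B16-RI, against 4.53 on B16-RII and 1.93 on B16-RIIL. The long noncoding RNA gene Gm5089, listed under an older clone number and lying on chromosome 14, gave 0.69 on B16 and 0.78 on B16-RI, against 1.91 on B16-RII and 2.35 on B16-RIIL. Of the 6, only Gm5089 and 5330431K02Rik had the 2-fold gap, and both lost it with 75th percentile scaling and with aligned probe sets. For 5330431K02Rik the signal was 1.17 on B16 and 0.56 on B16-RI, against 2.50 on B16-RII and 2.75 on B16-RIIL. For 2010005J08Rik (Urgcp), on chromosome 11, it was 1.73 on B16 and 1.33 on B16-RI, against 4.26 on B16-RII and 3.10 on B16-RIIL. In each of these genes the round 2 lines were both above the earlier ones. BC016201 gave 2.06 on B16 and 1.75 on B16-RI, against 3.49 on B16-RII and 3.70 on B16-RIIL. Surf2, a gene of the surfeit cluster on chromosome 2, gave 2.20 on B16 and 1.43 on B16-RI, against 2.98 on B16-RII and 2.85 on B16-RIIL, at least 1.35-fold and 1.30-fold above B16. With 75th percentile scaling the Surf2 difference on B16-RII went from 0.44 to -0.08 log2 units.

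Among the 27 members without a single symbol, 12 had the 2-fold gap, and the ratio of the lower round 2 to the higher earlier signal ranged from 0.908 to 5.01. In the 30 named members 17 had the gap, with ratios from 0.757 to 8.11. Highest in S/N of those without a symbol were AK019879.1 and mCG147252. AK019879.1 was measured at 0.33 on B16 and 0.68 on B16-RI, against 2.95 on B16-RII and 6.29 on B16-RIIL. For mCG147252 the signal was 0.48 on B16 and 0.82 on B16-RI, against 4.11 on B16-RII and 9.53 on B16-RIIL. On B16-RII the first was at least 8.94-fold and the second at least 8.56-fold above B16, and on B16-RIIL they were at least 19.1-fold and 19.9-fold above it.

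The limits of the rule passed through a continuous range of S/N. The members and probes given here are those with a gene symbol. On B16 the members nearest to the limit were Surf2 at 2.57 and 2300009P13Rik at 2.55, and the probes just outside were CRG-L1 (Acer2) at 3.06 and 4932415G12Rik (Cep83os) at 3.08. On B16-RI, Ephb4 and Gm5089 lay inside at 2.95 each, and Zfpn1a2 (Ikzf2) at 3.04 and Npr2 at 3.08 outside. The lowest with a symbol on B16-RII were Surf2 at 6.07 and Cklfsf8 at 6.08, with Tle3 at 5.95 and 1200010C09Rik (Syvn1) at 5.68 outside. On B16-RIIL, BC062958 at 6.07 and Man2b2 at 6.17 were inside, and 4932415M13 at 5.90 and Efna5 at 5.79 outside.

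The rule set no condition on the difference between the round 2 lines, other than that the S/N reached 6 in both. On B16-RIIL 31 members were brighter than on B16-RII and 26 were dimmer, and the median difference was 0.05 log2 units. In 47 members the signals were within 2-fold of each other. At least 2-fold brighter on B16-RIIL were 6 members, of which Amhr2 differed most, by 1.86 log2 units. It was followed by Pthr1 with 1.40, the probe of 6530413N01Rik and Rgs16 with 1.24, mCG147252 with 1.21, AK019879.1 with 1.09 and Man2b2 with 1.04. At least 2-fold brighter on B16-RII were 4 members, for which the difference was -1.23 in Gfap, -1.23 in 4833436C18Rik, -1.21 in mCG1031930.1 and -1.07 in AK082407.1. D5Ertd135e, at -0.95, came next. The signal of mCG1031930.1 was 0.39 on B16 and 0.68 on B16-RI, against 3.70 on B16-RII and 1.60 on B16-RIIL. For AK082407.1 it was 1.44 on B16 and 0.91 on B16-RI, against 3.42 on B16-RII and 1.63 on B16-RIIL, so that the lung-derived line lay nearer to the earlier lines than to B16-RII.

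Of all 10798 probes with an S/N of at least 6 on both round 2 arrays, 0.648% were at least 2-fold brighter on B16-RIIL and 2.70% on B16-RII, and their median difference was -0.17 log2 units. Among the 1639 probes whose lower S/N was between 6 and 10, the shares were 2.20% and 4.94%. In the 52 members of that range 3 were 2-fold brighter on B16-RIIL and 4 on B16-RII. The other 3 members brighter on B16-RIIL, Pthr1, AK019879.1 and mCG147252, had an S/N of 10 or more on both arrays. With 1 array per line in use, these counts were not tested. Under each scaling tried, 5 to 7 members were 2-fold brighter on B16-RIIL, while the 4 brighter on B16-RII became 0 with quantile normalization, 0 with 75th percentile scaling and 2 once the medians of the 2 probe sets were aligned.

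**Figure D3:**
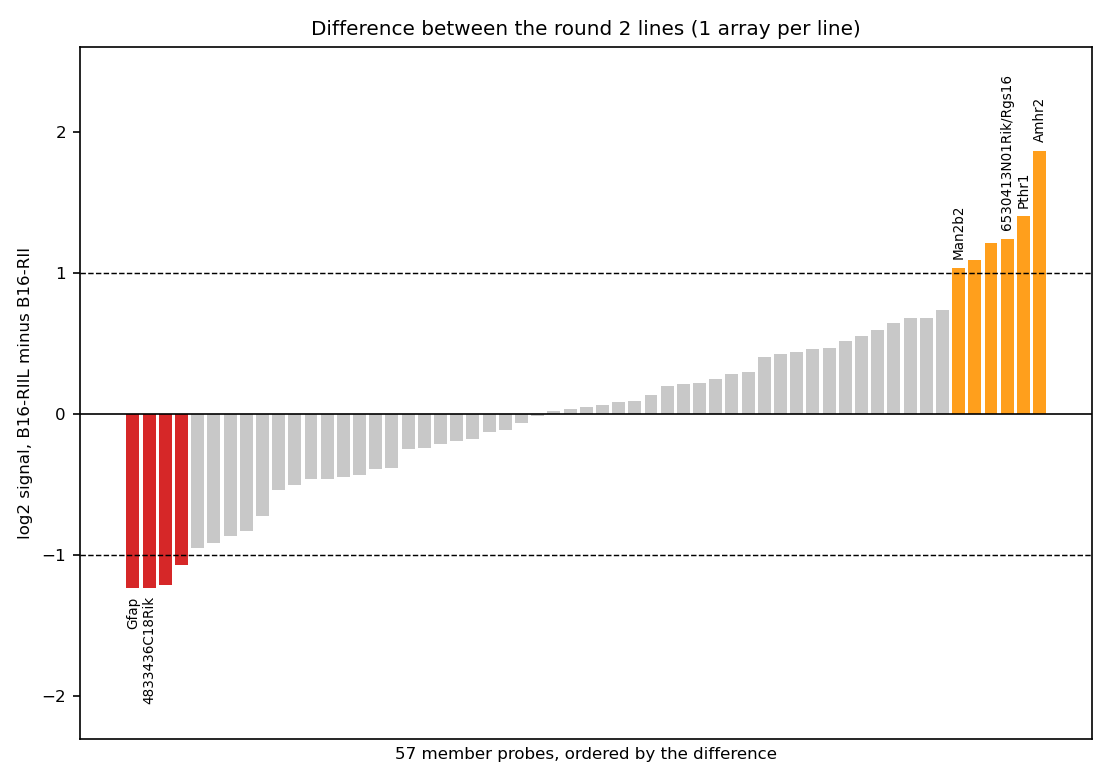
Bars give the log2 normalized signal on B16-RIIL minus that on B16-RII for the 57 members, in order of the difference, with dashed lines at 1 and -1 (2-fold). The 6 bars above the upper line run up to 1.86 (Amhr2), the 4 below the lower line down to -1.23 (Gfap and 4833436C18Rik), and the other 47 lie between. Members of 2-fold or more that have a gene symbol are named.

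Other probes of the same genes gave a reading that the rule did not use. Of the 57 genes, 9 had other probes on the array, 10 in all. On B16 6 of these were detected (60.0%), against 43.5% of all probes, and the same 6 were detected in all 4 lines. For Rab5b the other probe gave 4.78 on B16 and 3.58 on B16-RI, against 3.97 on B16-RII and 5.69 on B16-RIIL. For C80879 it gave 7.51 on B16 and 12.1 on B16-RI, against 9.31 on B16-RII and 10.05 on B16-RIIL. For 2010005J08Rik it gave 6.81 on B16 and 9.75 on B16-RI, against 9.87 on B16-RII and 12.68 on B16-RIIL. These genes were therefore read in the parental line by 1 probe and not by the other.

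Among the 6, the first other probe of Fntb was at 2.43 on B16 and 5.88 on B16-RI, against 5.47 on B16-RII and 4.40 on B16-RIIL, and the second was detected in no line. The other probe of mCG19212.2 gave 3.63 on B16 and 3.81 on B16-RI, against 4.84 on B16-RII and 7.10 on B16-RIIL. That of mCG15349.2 gave 5.53 on B16 and 7.78 on B16-RI, against 6.80 on B16-RII and 7.47 on B16-RIIL. Over the 6 the median difference from B16 was 0.36 log2 units on B16-RII and 0.65 on B16-RIIL, beside 0.41 and 0.22 over all probes detected everywhere.

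A reading like that of the member was given by 1 of the 10 other probes. The other probe of BC062958 (Zfp458) was detected on both round 2 arrays and on neither earlier one, at 0.55 on B16 and 0.55 on B16-RI, against 1.52 on B16-RII and 1.17 on B16-RIIL. It was at least 2.76-fold above B16 on B16-RII and at least 2.13-fold above it on B16-RIIL, with an S/N of 4.15 and 3.01. For Svil the other probe was detected on B16-RIIL alone, at 0.49 on B16 and 1.09 on B16-RI, against 0.65 on B16-RII and 1.63 on B16-RIIL. The other probe of 6530413N01Rik and Rgs16, whose member probe gave 0.50, 0.53, 0.91 and 2.15 in the same order of lines, was likewise detected on B16-RIIL alone. It gave 0.43 on B16 and 0.73 on B16-RI, against 0.58 on B16-RII and 1.11 on B16-RIIL.

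In all, 2 of the 10 other probes were detected and at least 2-fold above B16 on B16-RII, those of Fntb (2.25-fold) and BC062958. On B16-RIIL 3 were, those of BC062958, Svil (at least 3.33-fold) and 6530413N01Rik with Rgs16 (at least 2.58-fold). Over all probes the shares were 6.51% and 6.42%. With an S/N of at least 5 asked of the brighter array, 1 passed on B16-RII and 0 on B16-RIIL. Under the other scalings the 2 on B16-RII became 0 or 1, and the 3 on B16-RIIL were 2 or 3. The remaining named members, Bcas1, Gfap, Pthr1, Amhr2 and Rab17 among them, had no other probe, so each rests on 1 reading per line.

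**Figure D4:**
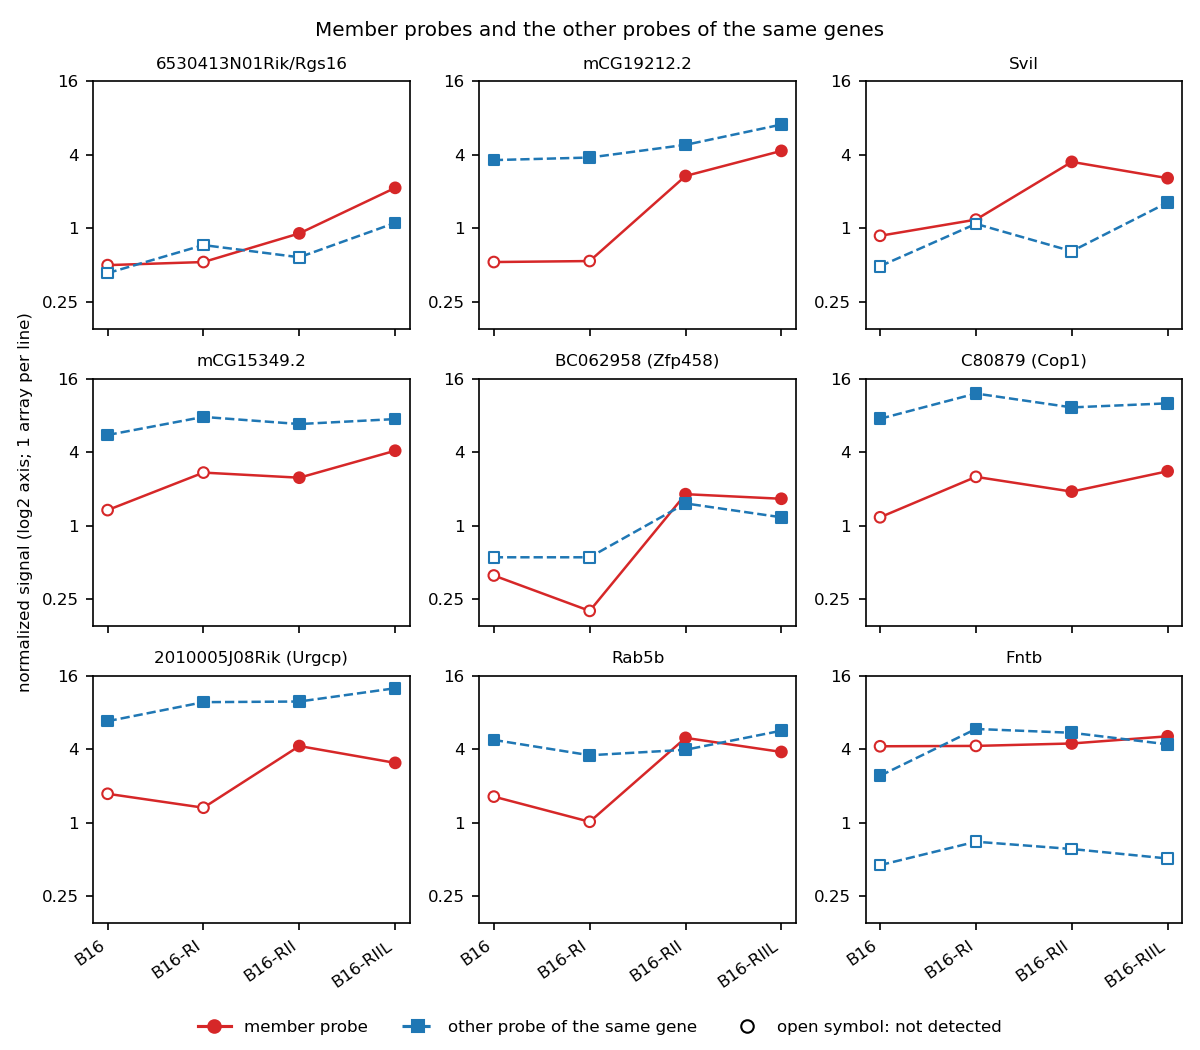
Normalized signal (log2 axis) in the 4 lines for the member probe (red circles, solid line) and the other probes (blue squares, dashed line) of 9 genes, with 1 array per line. Filled symbols were detected and open ones were not. In 6 panels a blue line is filled throughout, in BC062958 both probes are filled only on B16-RII and B16-RIIL, and in Fntb the second blue line is open throughout.

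The members were spread over the genome and over the array. The 28 genes found in the RefSeq table lay on 16 chromosomes. Chromosome 11 held the most, 4 genes (14.3% of the members against 7.82% of 14687 genes on the array), and chromosomes 1, 5 and 10 held 3 each. Chromosomes 3, 17, 19, X and Y held none. The authors' normalization divided the raw signal by 1 constant for 16524 probes and by another for the other 16488, and 29 members (50.9%) were in the first set and 28 in the second.

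No member was on the lists of lymphocyte, fibroblast, lung epithelium and keratinocyte markers, whose detected genes are to be read against the 53.6% to 56.6% of all genes with a symbol detected on an array. Of 9 T and B lymphocyte genes, 2 were detected on B16, 2 on B16-RI, 1 on B16-RII and 3 on B16-RIIL, with a summed signal of 62.05, 71.65, 84.3 and 66.43, most of it from 1 gene detected in every line. Of 8 fibroblast genes, 2, 1, 2 and 3 were detected, with sums between 13.93 and 23.29. Of 7 lung epithelium genes, 3 were detected on B16, 1 on B16-RI, 1 on B16-RII and 2 on B16-RIIL, with sums between 8.01 and 10.47. Of 7 keratinocyte genes, 1 was detected on each array but B16-RII, where 2 were, with sums between 9.39 and 14.75. The part of other cells in the members' signals was not tested.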

How the data were processed

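Labelled cRNA of the 4 lines was hybridized to mouse whole-genome arrays of Applied Biosystems and read by chemiluminescence, and 1 array per line matches a sample of the labels. The authors deposited raw and normalized intensity for each of 33012 probes. Dividing one by the other showed that the normalized intensity is the raw signal over 1 of 2 constants per array, and that it is not quantile normalized, although the methods name that step. The deposited S/N and flag are scores of the analyzer. Used were 16 columns. Columns of second arrays (30), for which the labels have no sample, and of log2 values and ratios that the authors derived (14) were not used here.

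Members were found by the rule on S/N and flag. Differences are log2 of the normalized signal with no pseudocount. In a ratio, an undetected signal was raised to the dimmest detected signal of its array if it was below that. No test was run, since the labels give 1 sample per line although the study describes duplicates, and precision is limited by this number. That floor was a normalized signal of 0.31 for B16, 0.42 for B16-RI, 0.37 for B16-RII and 0.32 for B16-RIIL.

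The members and gene lists were chosen with earlier results of these data known, and the functional groups were formed after the values were seen. All members with a symbol could be named. In full were given the 25 named members with the highest lower S/N in round 2, members with other probes, the 5 farthest apart in each direction between the round 2 lines, the 2 named probes on either side of each limit, and members of a list. Promoters were printed for the first 3 in the table. Members outside these rules were named after their values were seen. The lists (melanocyte, lymphocyte, macrophage, fibroblast, endothelium, skeletal muscle, lung epithelium, keratinocyte, neuronal, Schwann and glia, interferon response, epithelial) took the brightest probe of each gene. Current names, chromosomes and promoters came from RefSeq tables of GRCm38.p6. The file names no build, so the coordinates given, those of promoters, are the RefSeq table's. The code of the rule was run on simulated data whose planted probes met the limits by design. This checks the code and cannot show whether the members are real changes. Python 3.11.15, numpy 2.4.6 and pandas 2.3.3 were used.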

Additional observations from a re-analysis of the deposited data

How the results depend on the processing

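Of 72 alternative values of the results over the members, 42 stayed within their limit (1.5-fold for a count). All 480 alternative values of the 30 named members (each round 2 line over B16 and over B16-RI) moved by less than 1.5-fold, between -0.54 and 0.43 log2 units. The sign changed in 8 of them, all over B16, in the 4 members Fntb, Man2b2, Surf2 and Hdac11. The median least difference from B16 ranged from 1.01 to 1.51 log2 units on B16-RII and from 1.25 to 1.57 on B16-RIIL, and the median between the round 2 lines from 0.05 to 0.19. No paired analysis was possible because the labels give 1 sample per line, and for the same reason no array was left out in turn.

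The number of members depended on the limits by construction. It was 104 with an S/N of at least 5 in round 2 and 5 with at least 10. It was 21 with an S/N below 2 on the earlier arrays, 4 with below 1 and 230 with below 5. It was 36 with a flag of 0, and 29 with a least ratio of 2. Without a flag limit it stayed at 57.

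At 1.5-fold 11 members were brighter on B16-RIIL and 9 on B16-RII, and at 4-fold 0 and 0. The 4 brighter on B16-RII were 0 with quantile normalization, 0 with 75th percentile scaling and 2 with the medians of the probe sets aligned. Of the other probes, the 2 above B16 on B16-RII were 1 with quantile normalization, 1 with median scaling, 0 with 75th percentile scaling, 1 with aligned sets, 0 at 4-fold and 1 at an S/N of 5. The 3 on B16-RIIL were 6 at 1.5-fold, 0 at 4-fold and 0 at an S/N of 5. The cause of the changes with scaling was not tested.

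Scaling alternatives for the 2-fold gap and for the glia and muscle lists were chosen after seeing the data. The 29 members with the gap were 19 with aligned sets and 22 to 30 otherwise. The glia genes above B16, Gfap included, were 1 on B16-RII and 2 on B16-RIIL with quantile normalization, against 3 and 4. With each of the other scalings they were 2 on B16-RII and 4 on B16-RIIL. The muscle genes on B16-RII were 2 under quantile normalization, 2 under median scaling, 2 under 75th percentile scaling and 2 with aligned sets, against 4. On B16-RIIL the muscle genes stayed at 4 under each of these. The dim signals of the members limit what can be read, since a ratio over an undetected signal is a bound.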

Other observations

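The neuronal, interferon response and epithelial lists held no member. Their counts stand beside those of all 15619 genes with a symbol, of which 54.9% were detected on B16, 53.6% on B16-RI, 56.4% on B16-RII and 56.6% on B16-RIIL, 7.41% were at least 2-fold above and 3.3% below B16 on B16-RII, and 7.14% above and 3.65% below on B16-RIIL. Of 14 neuronal genes on the array, 2 were detected on B16, 2 on B16-RI, 4 on B16-RII and 5 on B16-RIIL, and 2 were at least 2-fold above B16 on each round 2 array. Of 11 interferon response genes on the array, 7 were detected on B16, 7 on B16-RI, 8 on B16-RII and 7 on B16-RIIL, with summed signals of 91.73, 284.92, 331.61 and 252.91 in that order, of which Cxcl10 alone made up 61.62, 254.49, 288.88 and 213.04, and 3 and 2 were at least 2-fold above B16 on B16-RII and B16-RIIL. Of 11 epithelial genes, 3 were detected on all 4 arrays and 5 on each array, though not the same 5 throughout. Relative to B16, 2 were 2-fold above and 2 were 2-fold below on B16-RII, against 0 and 0 on B16-RIIL.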
